A study of Mus musculus with 8 samples.

Results

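A set of 10 genes that mark macrophages in mouse tissue were followed through RNA sequencing of embryonic skin from mice labelled as mutant for Cyp26b1, which encodes an enzyme that breaks down retinoic acid. They are Csf1r, Tyrobp, Lyz2, Fcer1g, Aif1, Cd68, C1qa, C1qb, Mrc1 and Cd163. All 10 were found by symbol among 21882 symbols in each of 3 tables, and the values of Cd163, the member with several listed transcripts, were summed. Transcript levels are in FPKM, fragment counts corrected for transcript length and library size, which allows levels of different genes to be set side by side.

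The embryos were C57BL/6. Whole skin taken at embryonic day 16.5 (E16.5) and labelled Cyp26b1-/- shares 1 table with skin of wild type embryos, and each group's 2 libraries were pooled into 1 value by the authors. At embryonic day 18.5 (E18.5), skin was separated into dermis and epidermis. In each tissue 1 library labelled En1cre;Cyp26b1f/- (here mutant dermis or epidermis) was compared with 1 library labelled Cyp26b1f/+ (control). En1cre acts in cells that have expressed Engrailed 1, which in skin include trunk dermal cells. The E18.5 mutants also lack 1 Cyp26b1 allele in every other cell, blood-derived cells included, while the controls carry a floxed and a wild-type allele, so these differences cannot be told apart. No E18.5 value has a replicate, no spread between libraries can be computed at either age, and read depth is unknown because FPKM does not carry it. In whole tissue, fewer macrophages and less RNA per macrophage cannot be told apart.

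Several facts of the libraries precede the results. Summed Cyp26b1 was 58.2 FPKM in Cyp26b1-/- skin and 35.0 FPKM in wild type skin, 102 FPKM in mutant dermis and 54.2 FPKM in control dermis, and 13.7 FPKM in mutant epidermis and 4.97 FPKM in control epidermis. The sum was thus higher in each group labelled mutant. At E16.5 its 2 listed transcripts went opposite ways. One fell to 14.4 FPKM in Cyp26b1-/- skin, against 19.4 FPKM in wild type skin (-0.91 relative to the median fold; adjusted p = 4.47e-08, recomputed from the authors' Cuffdiff statistic), and the other rose to 43.8 FPKM in Cyp26b1-/- skin, against 15.5 FPKM in wild type skin (1.02; adjusted p = 6.36e-11, likewise from the authors' statistic). A table of whole transcripts cannot show missing exons, and each direction below rests on the labels. The dermis libraries carried keratinocyte transcripts. The basal keratin Krt5 was listed at 1806 FPKM in mutant dermis and 6265 FPKM in control dermis, against 704 FPKM in mutant epidermis and 2634 FPKM in control epidermis, in tables that were normalized separately. Dcn, which encodes the dermal matrix protein decorin, was at 358 FPKM in mutant dermis and 53.8 FPKM in control dermis, and at 1.78 FPKM in mutant epidermis and 5.34 FPKM in control epidermis. Other dermal fibroblast genes did not all share the direction of Dcn in dermis. Pdgfra was at 18.1 FPKM in mutant dermis and 8.07 FPKM in control dermis. Twist2 was at 312 FPKM in mutant dermis and 387 FPKM in control dermis. Col1a2 and Col3a1 had no usable estimate there.

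Macrophages of fetal skin descend from yolk sac and fetal liver progenitors. They settle in the dermis, where they clear dying cells and accompany growing vessels, and in the epidermis, where they give rise to Langerhans cells. Csf1r is the receptor for 2 growth factors that macrophages need, Csf1 and Il34, and Il34 is made in skin by keratinocytes. Tyrobp (DAP12) and Fcer1g are small signalling adaptors that pair with receptors at the cell surface, Mrc1 and Cd163 are scavenger receptors of dermal and other perivascular macrophages, and C1qa and C1qb encode chains of the complement starter C1q. Lyz2 encodes lysozyme M, Cd68 a lysosomal membrane protein, and Aif1 (Iba1) an actin-bundling protein. The transcription factor PU.1, encoded by Spi1 and listed under its older symbol Sfpi1, directs the lineage and binds DNA at sites with a GAGGAA core.

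Promoter sequences are shown for Cd68 and Mrc1, which were past a 2-fold line in dermis, and for C1qb, which was not. The sequences are RefSeq's, in build GRCm38.p6, and run from 250 bases before the transcription start to 50 after it. Cd68 lies on the minus strand (chr11:69666121-69666420), Mrc1 on the plus strand (chr2:14229164-14229463) and C1qb on the minus strand (chr4:136886151-136886450). Capitals mark GAGGAA or its reverse complement TTCCTC.
Cd68: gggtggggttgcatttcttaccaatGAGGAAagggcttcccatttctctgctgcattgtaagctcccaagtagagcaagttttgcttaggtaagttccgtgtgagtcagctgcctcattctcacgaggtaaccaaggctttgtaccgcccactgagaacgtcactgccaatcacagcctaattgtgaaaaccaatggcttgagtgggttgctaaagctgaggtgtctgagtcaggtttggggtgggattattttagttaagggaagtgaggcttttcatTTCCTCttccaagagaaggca
Mrc1: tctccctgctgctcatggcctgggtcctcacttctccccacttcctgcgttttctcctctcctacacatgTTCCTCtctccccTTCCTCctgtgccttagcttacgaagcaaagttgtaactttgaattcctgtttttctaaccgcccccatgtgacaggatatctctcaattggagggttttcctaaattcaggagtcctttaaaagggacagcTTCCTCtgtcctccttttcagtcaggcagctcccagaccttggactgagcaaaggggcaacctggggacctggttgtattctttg
C1qb: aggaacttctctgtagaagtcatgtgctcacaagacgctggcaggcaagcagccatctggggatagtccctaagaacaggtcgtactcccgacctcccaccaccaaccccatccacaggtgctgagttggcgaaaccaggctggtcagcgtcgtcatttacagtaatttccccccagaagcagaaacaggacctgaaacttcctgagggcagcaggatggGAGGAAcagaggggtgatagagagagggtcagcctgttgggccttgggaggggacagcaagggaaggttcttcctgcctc

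Promoters of 7 members were compared. GAGGAA was found on either strand in 4 of them, with 3 matches in Mrc1, 2 in Cd68, and 1 each in Aif1 and C1qb, and it occurred in 28.3% of the 32851 promoters of the table. The windows of Lyz2, Fcer1g and Cd163 did not hold these letters. AGGTCA, the half-site that retinoic acid receptors and other nuclear receptors bind, was found on either strand in 1 of the 7, that of Aif1, and in 16.3% of all promoters. Genes past the 2-fold line in dermis thus include promoters with the PU.1 core and promoters without it, and C1qb, on the other side of the line, holds it too.

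In E16.5 skin, no macrophage gene was called higher or lower in Cyp26b1-/- embryos once the shift of the whole table was removed. Each of the 10 was listed at a higher FPKM in Cyp26b1-/- skin than in wild type skin, but so were 89.5% of the 14154 genes with at least 1 FPKM. Differences are therefore given as log2((mutant FPKM + 1)/(control FPKM + 1)) minus the same value of the median gene, which was 0.43, a scale that understates changes of low genes. On this scale the members ranged from -0.30 for Fcer1g to 0.28 for C1qb, with a median of -0.09 against 0 for all genes.

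Of the receptors, Csf1r was at 34.0 FPKM in Cyp26b1-/- skin and 27.3 FPKM in wild type skin. Mrc1 was at 33.6 FPKM in Cyp26b1-/- skin and 26.5 FPKM in wild type skin, and Cd163 at 7.57 FPKM in Cyp26b1-/- skin and 5.4 FPKM in wild type skin. These receptors lay between -0.12 and -0.01 relative to the median gene. The adaptors were the most abundant members with Fcer1g at 59.2 FPKM in Cyp26b1-/- skin and 54.3 FPKM in wild type skin, and Tyrobp at 51.5 FPKM in Cyp26b1-/- skin and 47.2 FPKM in wild type skin. They had the lowest relative differences, -0.30 each. C1qb had the highest one, at 49.6 FPKM in Cyp26b1-/- skin and 29.9 FPKM in wild type skin, while C1qa, the next chain of the same complex, was at 31.6 FPKM in Cyp26b1-/- skin and 24.7 FPKM in wild type skin (-0.09). Lyz2 was at 42.5 FPKM in Cyp26b1-/- skin and 29.0 FPKM in wild type skin (0.11). Cd68 was at 24.7 FPKM in Cyp26b1-/- skin and 20.5 FPKM in wild type skin (-0.17). Aif1 was the lowest member, at 5.54 FPKM in Cyp26b1-/- skin and 3.7 FPKM in wild type skin (0.05). Pooling leaves no way to see whether the libraries of a group overlapped.

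The deposited test gives the error that exists for these values. Here the authors' statistic was recomputed on folds from which the table's median, 0.475 on the log2 scale, had been taken off, and p-values were adjusted by the Benjamini-Hochberg method across the 19608 transcripts with a test. Transcripts without a finite fold, such as those at 0 FPKM in 1 group, kept the authors' p-value. No member transcript was among them. No member passed an adjusted p of 0.05, where 18.2% of 16303 tested genes did (8.24% higher, 10% lower). Fcer1g came nearest, with a deposited log2 fold minus the median of -0.35 (SE 0.17; unadjusted p = 0.041 and adjusted p = 0.157, recomputed from the statistic the authors obtained with Cuffdiff), and it was the 1 member with an unadjusted p below 0.05. C1qb stood at 0.25 (SE 0.16; adjusted p = 0.309 on the same recomputation from the authors' statistic). Without subtraction of the median, the authors' deposited table called 5 members higher at q < 0.05, namely Csf1r, Mrc1, Cd163, C1qb and Lyz2, and 0 lower, in a table that called 54.6% of tested genes higher and 3.46% lower. The members' implied SE ran from 0.14 to 0.34 on the log2 scale, so differences of the size seen here were not resolved.

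**Figure D1:**
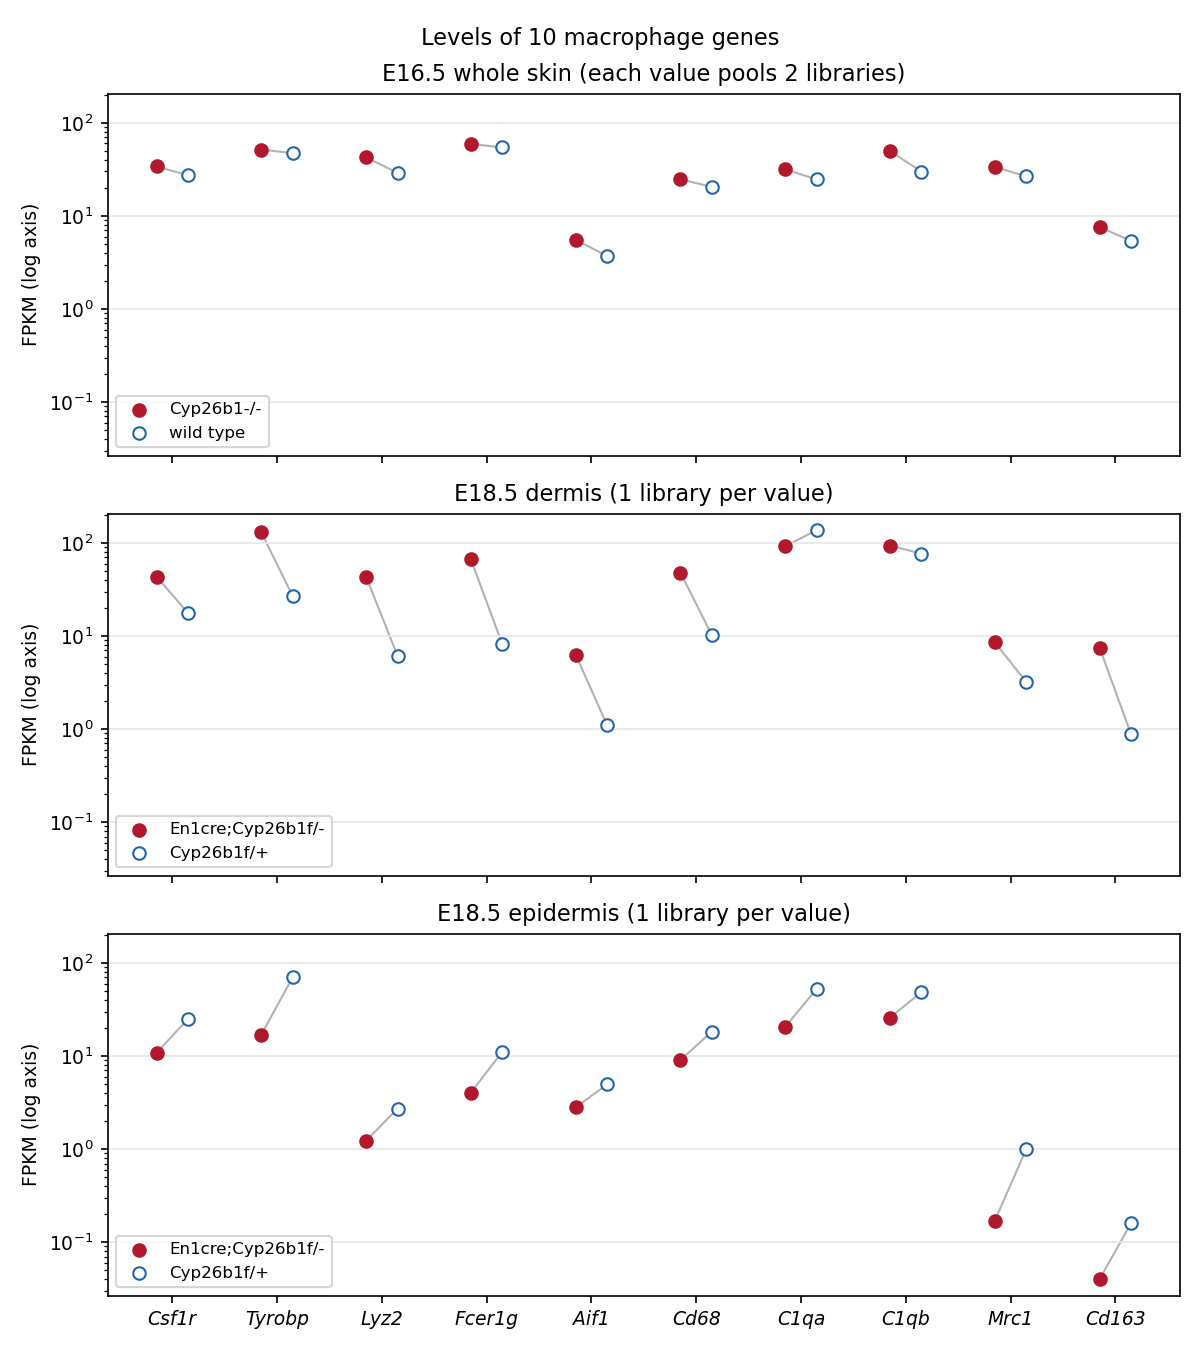
FPKM (log axis) of the 10 macrophage genes at E16.5 (upper panel, each point the authors' pooled value of 2 libraries), in E18.5 dermis (middle) and in E18.5 epidermis (lower, each point 1 library), with filled points for Cyp26b1-/- or En1cre;Cyp26b1f/- and open points for wild type or Cyp26b1f/+. The pairs lie close together at E16.5, 9 of 10 filled points are above their open partner in dermis with C1qa as the exception, and all 10 are below it in epidermis.

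Among growth factors of Csf1r and transcription factors of the lineage, 0 rose and 5 fell of 11 tested. Il34, the keratinocyte ligand of Csf1r, fell to 3.3 FPKM in Cyp26b1-/- skin, against 11.4 FPKM in wild type skin (-1.96 relative to the median gene; adjusted p = 1.37e-12 for its more abundant transcript, recomputed from the authors' Cuffdiff statistic). Csf1, the other ligand, was at 14.1 FPKM in Cyp26b1-/- skin and 13.2 FPKM in wild type skin and was not called (-0.33). Csf2rb, the shared chain of the receptors for GM-CSF, IL-3 and IL-5, fell to 11.7 FPKM in Cyp26b1-/- skin, against 16.4 FPKM in wild type skin (-0.88), and 2 transcription factors of the lineage were called lower relative to the median gene with FPKM close between the groups. Maf was at 24.7 FPKM in Cyp26b1-/- skin and 25.1 FPKM in wild type skin (-0.45). Cebpa was at 77.9 FPKM in Cyp26b1-/- skin and 74.3 FPKM in wild type skin (-0.36), so its FPKM was higher and its call rests on the shift of the median gene. The PU.1 gene Sfpi1 was at 6.87 FPKM in Cyp26b1-/- skin and 5.95 FPKM in wild type skin and was not called (-0.25). Keratinocyte genes were lower in the same skin, with 0 rises and 2 falls of 3 tested (median -0.89), and their part in the fall of Il34 was not tested.

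In a wider set of 39 macrophage genes, 2 rose and 4 fell of 33 tested, beside 18.2% called over all tested genes, and the median of 30 genes with at least 1 FPKM was -0.05. A gene counts when at least 1 of its transcripts is called and none the other way. Sepp1 rose on a transcript at 40.8 FPKM in Cyp26b1-/- skin and 9.42 FPKM in wild type skin. Its main transcript, at 210 FPKM in Cyp26b1-/- skin and 176 FPKM in wild type skin, was not called. Itgam fell on a transcript at 0.64 FPKM in Cyp26b1-/- skin and 1.7 FPKM in wild type skin. Its other transcript, at 3.24 FPKM in Cyp26b1-/- skin and 2.04 FPKM in wild type skin, was not called. Hmox1, which degrades heme, fell to 34.0 FPKM in Cyp26b1-/- skin, against 42.3 FPKM in wild type skin (-0.74). The F4/80 gene Emr1 was at 7.79 FPKM in Cyp26b1-/- skin and 5.89 FPKM in wild type skin (-0.08), and Cx3cr1, the fractalkine receptor of tissue macrophages, at 12.98 FPKM in Cyp26b1-/- skin and 7.66 FPKM in wild type skin (0.26); neither was called. Of genes shared by all leukocytes, 0 rose and 3 fell of 12 tested (median -0.24). Of receptors and signalling proteins that work with Tyrobp and Fcer1g, 1 rose and 1 fell of 17 tested (median -0.20). The rise was Fcer1a, at 0.98 FPKM in Cyp26b1-/- skin and 0.04 FPKM in wild type skin. The fall was Vav1, also among the leukocyte falls, on a transcript at 0.74 FPKM in Cyp26b1-/- skin and 1.72 FPKM in wild type skin. Summed Vav1 was at 1.89 FPKM in Cyp26b1-/- skin and 1.72 FPKM in wild type skin. Of other complement genes, 1 rose and 2 fell of 15 tested (median -0.17). The complement rise was C5ar1. It rests on a transcript at 0.41 FPKM in Cyp26b1-/- skin and 0 FPKM in wild type skin, tested without removal of the shift. Lysosome genes had 1 rise and 0 falls of 16 tested (median 0.03), and chemokines and receptors of monocytes 0 and 0 of 10 tested (median -0.09). The lysosome rise, Lipa, was called on its less abundant transcript only.

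Among neighbours in the tissue at E16.5, mast cell genes had 1 rise and 5 falls of 10 tested (median -0.48). They included the mast cell protease gene Mcpt4, at 5.5 FPKM in Cyp26b1-/- skin and 13.5 FPKM in wild type skin. Fcer1g also serves the IgE receptor of mast cells, so its level there is not that of macrophages alone. Of neutrophil and monocyte genes 0 rose and 3 fell of 11 tested (median -0.51), of T, natural killer and B cell genes 1 rose and 2 fell of 9 (median -0.41), of Langerhans and dendritic cell genes 0 rose and 0 fell of 6 (median 0.07), and of osteoclast genes 1 rose and 0 fell of 7 (median -0.22), the rise being Acp5, a tartrate-resistant phosphatase. The rise among T, natural killer and B cell genes was Cd247. It rests on a transcript at 0.86 FPKM in Cyp26b1-/- skin and 0 FPKM in wild type skin, tested without removal of the shift. Endothelial genes had 0 calls in 7 tested (median -0.08), and dermal fibroblast genes 0 rises and 2 falls of 3 (median -0.22). Among these falls, that of Pdgfra was called on its less abundant transcript only.

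In E18.5 dermis most macrophage genes were higher in the mutant library. Mutant FPKM was above control FPKM for 9 of 10 members, as it was for 55.3% of genes. Of the 10 members, 8 were at least 2-fold higher than the median gene and 0 at least 2-fold lower, where 14.0% of 13398 genes were 2-fold higher and 13.9% lower. The median of the members was 1.84, against 0 for all genes. With 1 library per group these differences have no replicate check, and no p-value was computed.

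The adaptor gene Fcer1g was at 66.4 FPKM in mutant dermis and 8.15 FPKM in control dermis (2.76). Lyz2 was at 43.3 FPKM in mutant dermis and 6.12 FPKM in control dermis (2.51). Tyrobp was the most abundant member of the mutant library, at 130 FPKM, against 26.7 FPKM in control dermis (2.12). The 2 adaptors, which travel with different receptors, were thus both more than 4-fold apart between the libraries. Cd163 was at 7.49 FPKM in mutant dermis and 0.88 FPKM in control dermis (2.05), and Cd68 was at 47.9 FPKM in mutant dermis and 10.2 FPKM in control dermis (2.01). Aif1 was at 6.29 FPKM in mutant dermis and 1.1 FPKM in control dermis (1.67). The growth factor receptor Csf1r and the mannose receptor Mrc1 were just past the 2-fold line, Csf1r at 43.4 FPKM in mutant dermis and 17.6 FPKM in control dermis (1.13), and Mrc1 at 8.52 FPKM in mutant dermis and 3.21 FPKM in control dermis (1.05).

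Of the members, C1qa and C1qb had the lowest differences relative to the median gene in dermis. C1qa was at 91.7 FPKM in mutant dermis and 137 FPKM in control dermis (-0.70), and C1qb at 93.6 FPKM in mutant dermis and 76.4 FPKM in control dermis (0.17). C1qc, the remaining chain, was at 87.9 FPKM in mutant dermis and 83.1 FPKM in control dermis (-0.04). The genes sit within 18699 bases on the minus strand of chromosome 4 (136436061 to 136454759, mm9). C1qa was the member with the highest level in control dermis, at 7.79 times the FPKM of Csf1r, against 2.11 times in mutant dermis. The corresponding ratios of Fcer1g to Csf1r were 1.53 in mutant dermis and 0.46 in control dermis, and those of Lyz2 to Csf1r 1.00 in mutant dermis and 0.35 in control dermis. The ratio of Mrc1 to Csf1r was 0.20 in mutant dermis and 0.18 in control dermis.

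**Figure D2:**
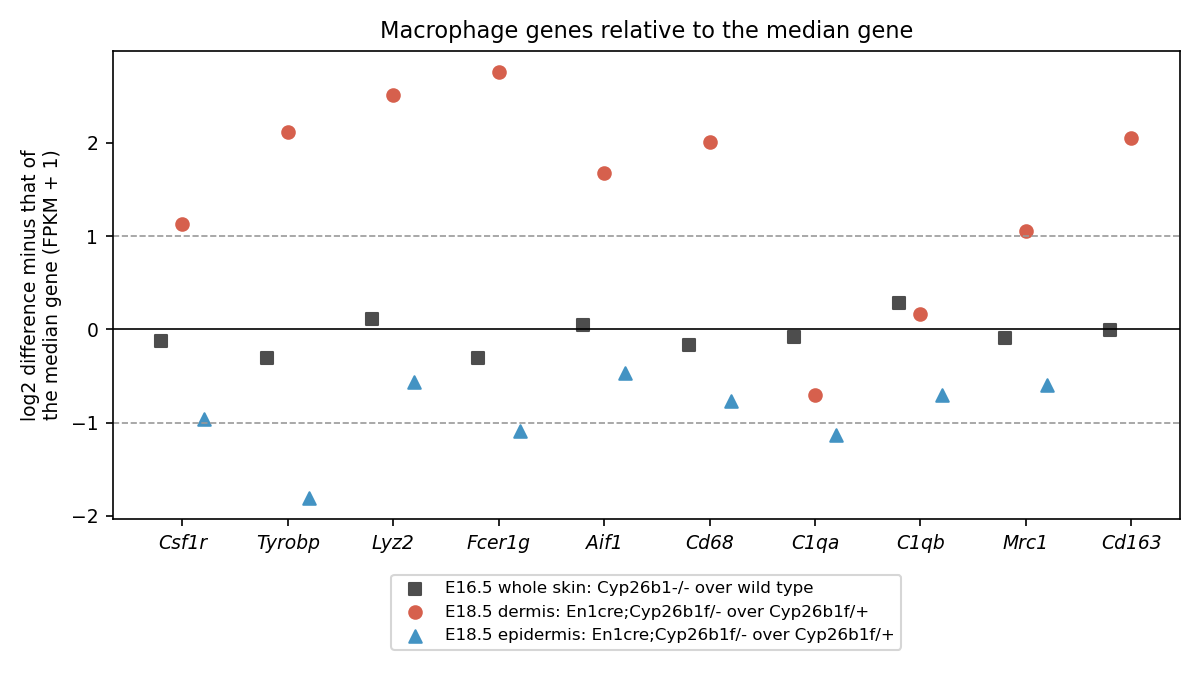
Log2 difference of each macrophage gene, mutant over control on FPKM + 1, minus that of the median gene, at E16.5 (squares), in E18.5 dermis (circles) and in E18.5 epidermis (triangles), with dashed lines at 2-fold. Squares lie between -0.30 and 0.28, 8 circles lie above the upper line with C1qa and C1qb below it, and all 9 triangles lie below 0; Cd163 has no triangle because it was under 1 FPKM in both epidermis libraries.

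Base composition moved with the dermis differences. Across 12763 genes with a transcript sequence in the GENCODE annotation of mm9, the median difference ran from 0.39 in the fourth of 10 equal bins of GC content to -0.88 in the most GC-rich bin. The C1q transcripts are GC-rich, C1qa at 59.5% and C1qb at 57.4%, and lie in the highest bin and the one below it, while the other members range from 43.4% for Mrc1 to 55.5% for Tyrobp. Relative to genes of the same bin, a measure added after the data were seen, C1qa in dermis was at 0.18 and C1qb at 0.66. The other 8 members ran from 0.99 for Csf1r to 2.52 for Fcer1g. By that measure 7 members were 2-fold higher and 0 lower, with 10.6% of genes higher and 11.1% lower, and C1qa and C1qb remained the lowest of the 10. The part of base composition in the difference between C1q and the other members was not tested beyond this matching.

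**Figure D3:**
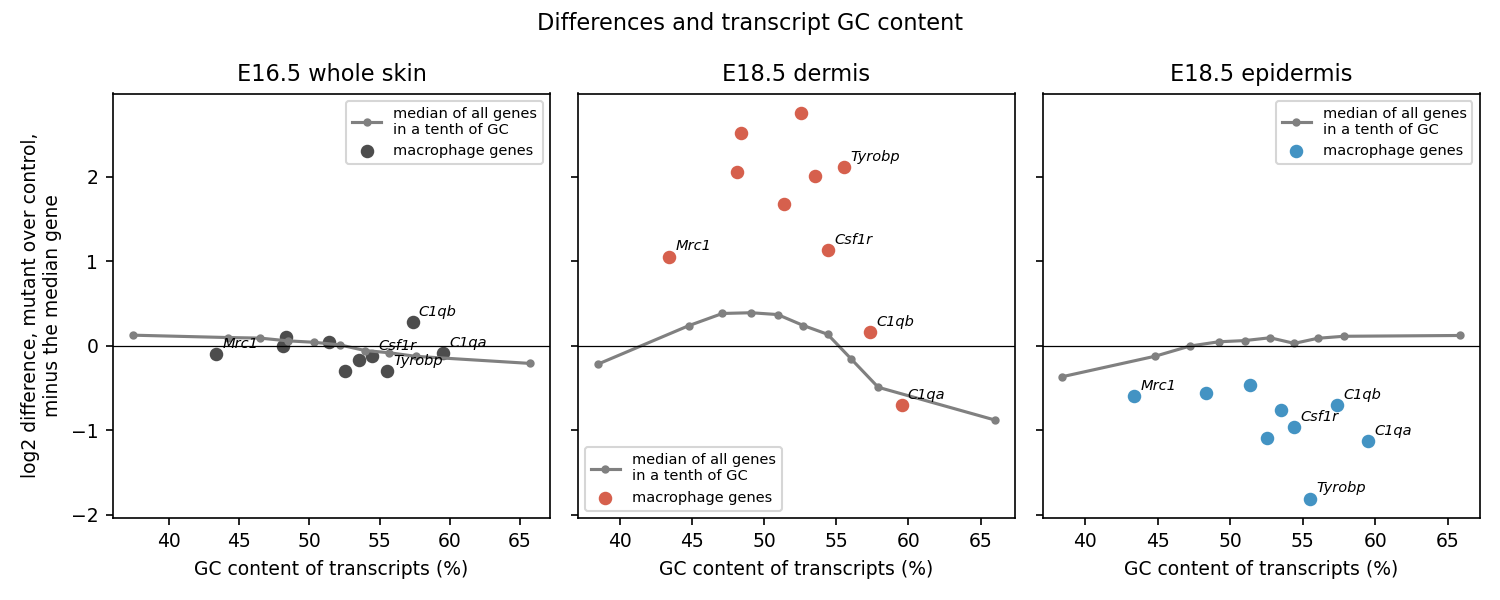
Log2 difference, mutant over control, minus the median gene, against transcript GC content for the macrophage genes (coloured points) and for the median of all genes in each of 10 GC bins (grey line), in the 3 comparisons. In dermis the grey line falls to -0.88 at the GC-rich end, where C1qa lies at -0.70, while Tyrobp at 55.5% GC lies at 2.12; in epidermis the line stays between -0.37 and 0.12.

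Other genes of the same cells pointed in several directions in dermis. Of the wider macrophage set, 10 were 2-fold higher and 2 lower of 33 with at least 1 FPKM (median 0.75). Of all genes 14.0% were 2-fold higher and 13.9% lower. Lyve1, a hyaluronan receptor of perivascular macrophages and lymphatic vessels, was at 49.5 FPKM in mutant dermis and 4.17 FPKM in control dermis (3.17), and Folr2, a folate receptor of the same macrophages, at 20.1 FPKM in mutant dermis and 2.26 FPKM in control dermis (2.58). Ms4a6c was at 9.36 FPKM in mutant dermis and 0.98 FPKM in control dermis (2.26). Emr1, the F4/80 gene, was at 8.73 FPKM in mutant dermis and 1.09 FPKM in control dermis (2.10). Apoe, an apolipoprotein of macrophages and many other skin cells, was lower, at 441 FPKM in mutant dermis and 2149 FPKM in control dermis (-2.41). The Fc receptors that use the Fcer1g adaptor were higher too, Fcgr3 at 27.4 FPKM in mutant dermis and 3.94 FPKM in control dermis (2.40) and Fcgr1 at 5.23 FPKM in mutant dermis and 0.25 FPKM in control dermis (2.19). Of the 15 measured receptors and signalling proteins of this pathway, 5 were 2-fold higher and 0 lower (median 0.57). With GC-matched medians 2 were higher, as were 10.6% of all genes.

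The listed regulators of the lineage did not share this direction as a set. Of 12 measured ligands, GM-CSF receptor chains and transcription factors, 2 were 2-fold higher and 5 lower (median -0.83). Of all genes 14.0% were 2-fold higher and 13.9% lower. With GC-matched medians 3 of the list were lower, as were 11.1% of all genes. Csf1 was at 36.2 FPKM in mutant dermis and 11.8 FPKM in control dermis (1.42), and Csf2rb at 33.0 FPKM in mutant dermis and 7.2 FPKM in control dermis (1.93). Sfpi1, the PU.1 gene, was at 19.2 FPKM in mutant dermis and 27.1 FPKM in control dermis (-0.60). Cebpb, a factor of macrophages and epithelia, was at 20.7 FPKM in mutant dermis and 70.7 FPKM in control dermis (-1.85). Il34 was at 9.72 FPKM in mutant dermis and 17.9 FPKM in control dermis (-0.94). In epidermis Il34 was at 117 FPKM in the mutant and 122 FPKM in the control library, and Cebpb at 91.6 FPKM and 61.2 FPKM. Sfpi1 was at 4.79 FPKM in mutant epidermis and 11.1 FPKM in control epidermis. The part of keratinocytes in the lower dermis values of this list was not tested. Leukocyte genes were split as well, with 4 of 11 measured 2-fold higher and 0 lower (median 0.50), or 2 higher with GC-matched medians. Arhgdib, a gene of blood and endothelial cells, was at 138 FPKM in mutant dermis and 17.3 FPKM in control dermis (2.80). Coro1a, an actin regulator of leukocytes, was at 52.6 FPKM in mutant dermis and 58.4 FPKM in control dermis (-0.27). Laptm5, a lysosomal protein of leukocytes, was at 92.3 FPKM in mutant dermis and 64.6 FPKM in control dermis (0.39).

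Markers of other cells also differed between the dermis libraries, in both directions. Of all genes 14.0% were 2-fold higher and 13.9% lower. All 5 measured keratinocyte markers were lower in mutant dermis, 4 of them 2-fold, and their summed level was 3534 FPKM in mutant dermis and 12602 FPKM in control dermis. Endothelial genes were higher, 5 of 6 measured by 2-fold, with a summed level of 200.2 FPKM in mutant dermis and 53.2 FPKM in control dermis. Mast cell genes were higher, 4 of 9 measured by 2-fold, with a summed level of 2668 FPKM in mutant dermis and 847 FPKM in control dermis, and the part of mast cells in the level of Fcer1g was not tested. Of 3 measured dermal fibroblast genes 1 was 2-fold higher, Dcn, and the sum was 689 FPKM in mutant dermis and 449 FPKM in control dermis. Relative to the median gene Pdgfra was higher (0.95) and Twist2 lower (-0.43). The summed members, at 538 FPKM in mutant dermis and 288 FPKM in control dermis, differed by a smaller ratio, 1.87, than most single members did, and C1qa and C1qb made up 47.7% and 26.6% of the control sum. The part of the makeup of the dissected tissue in these differences was not tested.

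Smaller lists completed the dermis, where 14.0% of all genes were 2-fold higher and 13.9% lower. Of chemokines and receptors of monocytes 5 of 7 measured were 2-fold higher and 0 lower (median 1.35), including the monocyte chemokine Ccl7 at 3.07 FPKM in mutant dermis and 0.47 FPKM in control dermis. Neutrophil and monocyte genes had 3 higher and 1 lower of 5 (median 1.90), lysosome genes 8 and 0 of 17 (median 0.99), and other complement genes 5 and 1 of 13 (median 0.72). T, natural killer and B cell genes had 1 and 0 of 5 (median 0.62), and osteoclast genes 1 and 0 of 3 (median 0.03). Langerhans and dendritic cell genes had 0 higher and 1 lower of 6 (median -0.20).

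**Figure D4:**
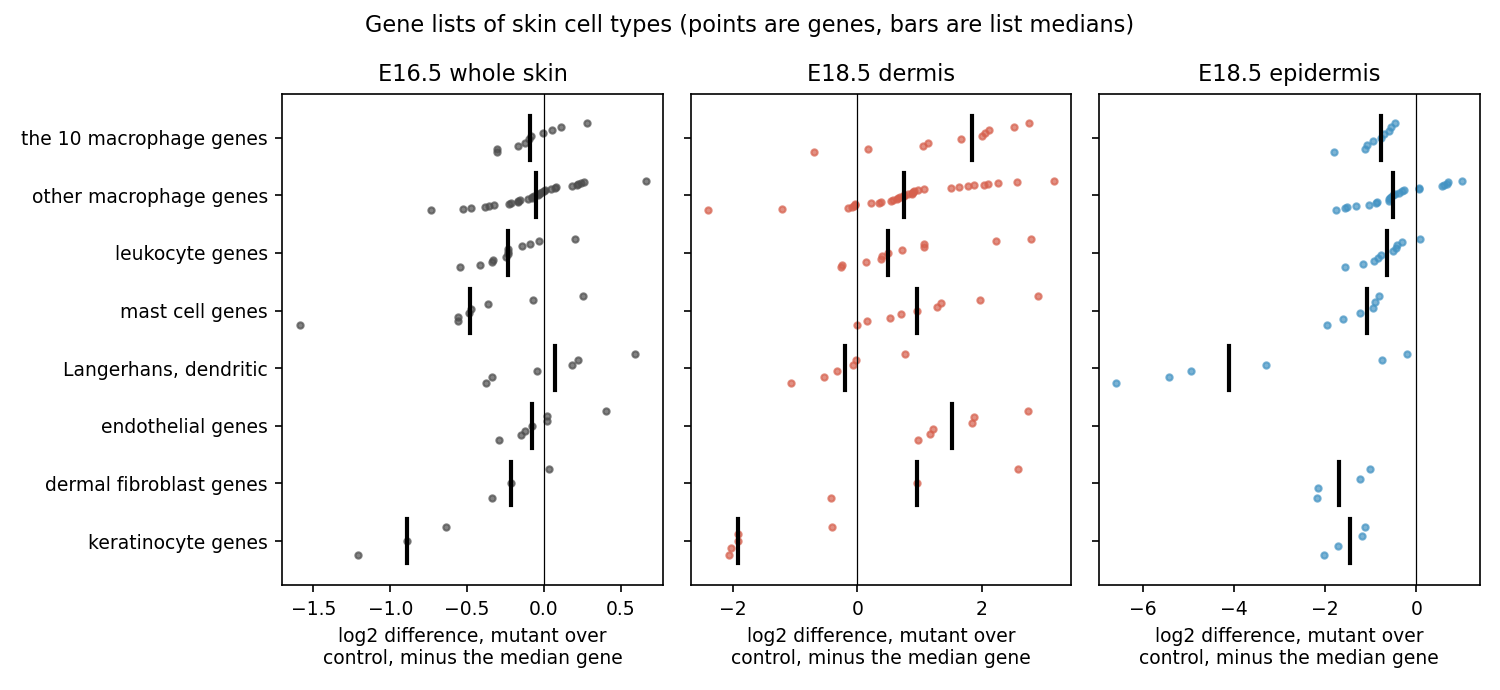
Log2 difference, mutant over control, minus the median gene, for single genes (points) of 8 lists with the list median (bar), in E16.5 skin, E18.5 dermis and E18.5 epidermis; the horizontal scales differ. In dermis macrophage, mast cell and endothelial medians lie at 1.84, 0.96 and 1.53 while keratinocyte genes lie at -1.92, and in epidermis the Langerhans and dendritic list has the lowest median, -4.12; endothelial genes were under 1 FPKM there.

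In E18.5 epidermis every macrophage gene was listed lower in the mutant library. Of 9 members with at least 1 FPKM in either library, 3 were at least 2-fold lower than the median gene and 0 at least 2-fold higher, where 4.86% of 11362 genes were 2-fold lower and 3.49% higher. All 9 lay below the median gene, from -1.81 for Tyrobp to -0.46 for Aif1, with a median of -0.77. Mutant FPKM was below control FPKM for all 10, as it was for 64.2% of all genes.

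Tyrobp was at 17.0 FPKM in mutant epidermis and 70.3 FPKM in control epidermis (-1.81). C1qa was at 20.6 FPKM in mutant epidermis and 52.6 FPKM in control epidermis (-1.13), and Fcer1g at 4.04 FPKM in mutant epidermis and 11.1 FPKM in control epidermis (-1.09). These were the 3 members past the 2-fold line. Csf1r stood just inside it, at 10.8 FPKM in mutant epidermis and 24.99 FPKM in control epidermis (-0.96). Cd68 was at 9.04 FPKM in mutant epidermis and 18.3 FPKM in control epidermis (-0.77), and C1qb at 25.9 FPKM in mutant epidermis and 48.6 FPKM in control epidermis (-0.71). Lyz2 and Aif1 were low in both libraries, Lyz2 at 1.23 FPKM in mutant epidermis and 2.72 FPKM in control epidermis (-0.56), and Aif1 at 2.81 FPKM in mutant epidermis and 4.95 FPKM in control epidermis (-0.46). The scavenger receptors were near 0: Mrc1 was at 0.17 FPKM in mutant epidermis and 1 FPKM in control epidermis, and Cd163 at 0.04 FPKM in mutant epidermis and 0.16 FPKM in control epidermis.

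Levels were also set against Csf1r within each group. Relative to Csf1r, Cd163 stood at 0.22 in Cyp26b1-/- and 0.20 in wild type skin at E16.5, at 0.17 in mutant and 0.05 in control dermis, and at 0.0037 in mutant and 0.0064 in control epidermis. Mrc1 stood at 0.99 in Cyp26b1-/- and 0.97 in wild type skin, at 0.20 in mutant and 0.18 in control dermis, and at 0.016 in mutant and 0.04 in control epidermis. C1qa stood at 0.93 in Cyp26b1-/- and 0.90 in wild type skin, 2.11 in mutant and 7.79 in control dermis, and 1.91 in mutant and 2.11 in control epidermis. Since each ratio is taken within a column, it does not depend on the separate scaling of the tables, but each E18.5 ratio rests on 1 library. The ratios were not matched for GC content, which is 59.5% for C1qa and 54.4% for Csf1r.

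**Figure D5:**
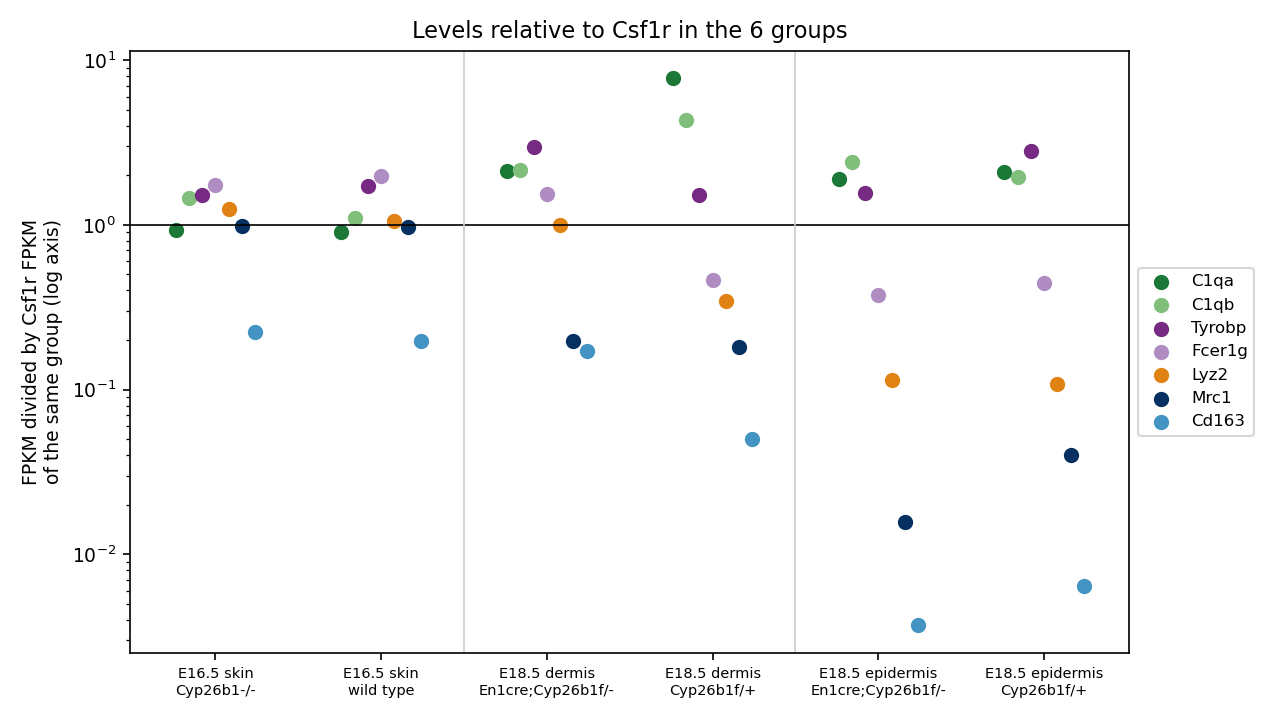
FPKM of 7 macrophage genes divided by the FPKM of Csf1r in the same group (log axis) for the 6 groups. Cd163 and Mrc1 lie lowest in both epidermis libraries, at 0.0037 to 0.04, C1qa and C1qb are highest in control dermis, at 7.79 and 4.33, and at E16.5 the genotypes differ little.

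Within each group, the order of levels was led by Fcer1g, Tyrobp and C1qb at E16.5 in both genotypes, and Aif1 and Cd163 came last. In mutant dermis Tyrobp, C1qb and C1qa led, and in control dermis C1qa, C1qb and Tyrobp. In mutant epidermis C1qb, C1qa and Tyrobp led, and in control epidermis Tyrobp, C1qa and C1qb, with Mrc1 and Cd163 last in both. No spread is available to say which neighbours in these orders differ. Csf1r ranked above 68.9% of genes with at least 1 FPKM in Cyp26b1-/- skin and 71.0% in wild type skin, 82.5% in mutant dermis and 64.3% in control dermis, and 52.4% in mutant epidermis and 73.9% in control epidermis. Between the dermis libraries Lyz2 had the widest gap in rank, above 82.4% of genes in mutant dermis and 38.7% in control dermis. Reads of Lyz2 may be shared with its near-identical neighbour Lyz1, which was at 5.72 FPKM or less in all 6 groups.

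Langerhans cell and antigen presentation genes had 0 higher and 4 lower of 6 measured in epidermis (median -4.12). Of all genes there, 3.49% were 2-fold higher and 4.86% lower. Cd74, the invariant chain of MHC class II, was at 0.59 FPKM in mutant epidermis and 172 FPKM in control epidermis (-6.59), and H2-Ab1, a class II chain, at 0.07 FPKM in mutant epidermis and 51.5 FPKM in control epidermis (-5.44). The Langerhans cell lectin Cd207 was at 0.00 FPKM in mutant epidermis and 0.39 FPKM in control epidermis. Il34, the epidermal ligand of Csf1r, was at 117 FPKM in mutant epidermis and 122 FPKM in control epidermis (0.12), and Csf1 at 3.27 FPKM in mutant epidermis and 3.22 FPKM in control epidermis (0.20). Sfpi1 was at 4.79 FPKM in mutant epidermis and 11.1 FPKM in control epidermis (-0.89). Of the 11 measured ligands, GM-CSF receptor chains and lineage factors, 0 were 2-fold higher and 0 lower (median 0.09).

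The wider macrophage set had 1 gene 2-fold higher and 5 lower of 23 measured in epidermis (median -0.52). Of all genes 3.49% were 2-fold higher and 4.86% lower. Clec10a, a galactose-type lectin of macrophages and dendritic cells, was at 0.09 FPKM in mutant epidermis and 3.21 FPKM in control epidermis (-1.77), and the cysteine protease gene Ctss at 5.47 FPKM in mutant epidermis and 17.4 FPKM in control epidermis (-1.33). Stab1, a scavenger receptor, was the 1 higher gene, at 17.8 FPKM in mutant epidermis and 9.54 FPKM in control epidermis (1.02), and was under 2-fold with GC-matched medians. Leukocyte genes had 0 higher and 2 lower of 10 (median -0.65), with Laptm5 at 18.5 FPKM in mutant epidermis and 64.1 FPKM in control epidermis (-1.56) and Coro1a at 22.0 FPKM in mutant epidermis and 57.0 FPKM in control epidermis (-1.16). Receptors and signalling proteins of the adaptors had 0 higher and 2 lower of 11 (median -0.54). Lysosome genes had 0 higher and 1 lower of 16 (median -0.30), other complement genes 0 and 0 of 5 (median -0.76), osteoclast genes 0 and 0 of 2 (median -0.29), and T, natural killer and B cell genes 0 and 1 of 5 (median -0.53). Of the monocyte chemokine list 1 gene was measured, Cx3cl1, at 0.50, and no neutrophil and monocyte gene reached 1 FPKM.

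Other cell markers were also lower in mutant epidermis. Of all genes 3.49% were 2-fold higher and 4.86% lower, or 2.55% higher and 4.61% lower with GC-matched medians. Mast cell genes had 0 higher and 3 lower of 6 (median -1.09), with a summed level of 4.97 FPKM in mutant epidermis and 27.2 FPKM in control epidermis. Dermal fibroblast genes had 0 higher and 4 lower of 4 measured, with a summed level of 34.1 FPKM in mutant epidermis and 176 FPKM in control epidermis. Basal and other keratinocyte genes had 0 higher and 4 lower of 4 (2 lower with GC-matched medians), and the sum of those without a failed row was 1097 FPKM in mutant epidermis and 4315 FPKM in control epidermis. The summed members were at 91.6 FPKM in mutant epidermis and 235 FPKM in control epidermis, a ratio of 0.39. Of the genes named above for dermis, Folr2 was at 0.02 FPKM in mutant epidermis and 0.38 FPKM in control epidermis and Lyve1 at 0.13 FPKM in mutant epidermis and 0.39 FPKM in control epidermis. The part of dermal carry-over or of the keratinocyte content of each library in the macrophage values was not tested.

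Over all 6 groups the genes with a profile most like the members' mean, among 12073 genes with at least 5 FPKM in 1 group, were Arsb, Slc25a45, Rgs10, Evi2a and Tcea2. Likeness was the mean absolute difference of log2(FPKM + 1), each profile centred on its own mean, over the 6 group values, and ran from 0.03 for Arsb to 0.15 for Tcea2. Arsb, which encodes the lysosomal arylsulfatase B, was at 22.9 FPKM in Cyp26b1-/- skin and 18.0 FPKM in wild type skin, 28.6 FPKM in mutant dermis and 8.6 FPKM in control dermis, and 4 FPKM in mutant epidermis and 8.72 FPKM in control epidermis. Of the members themselves, Csf1r and Cd68 were closest to the mean profile, at 0.30 and 0.36, and Mrc1 and C1qa farthest, at 1.06 and 0.97. Of the genes compared, 176 were closer to that mean than Csf1r and 475 were closer than Cd68. The counts were 7451 for Lyz2, 8585 for C1qa and 9302 for Mrc1, so the mean does not describe each member. A profile of 6 values from separately scaled tables is a description and carries no test.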

How the data were processed

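Libraries were made from 1 ug of total RNA with an Illumina TruSeq kit, per the labels' protocols. The submitters' processing notes name build mm9 and the tools Cuffdiff 1.3.0, Cufflinks, Bowtie 0.12.7.0 and TopHat 1.3.2, without settings; strand handling is not given in the sources used here. Per the file headers, the authors deposited 1 row per RefSeq transcript with FPKM of both groups, their log2 ratio, a statistic with its p-value and q-value, and a status. The test statistic, a score in the authors' tables, is negative where the fold is positive, and the implied SE is the size of the fold over that of the score, Cuffdiff's model error rather than a spread between animals. The E16.5 columns pool 2 libraries per group, so depth per library and replicate error are unknown.

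From these, FPKM were summed per symbol, genes with any row whose status marks an unusable estimate were left out of differences (no member had one), and genes needed 1 FPKM in either group. A pseudocount of 1 was used. At E16.5 the deposited statistic was recomputed after subtracting the median deposited fold, with Benjamini-Hochberg adjustment over all tested transcripts. Transcripts whose fold or statistic was 0 or not finite kept the authors' p-value, without that subtraction. A gene was called when at least 1 transcript passed 0.05 and none passed the other way. At E18.5, with 1 library per group, genes were counted by a 2-fold difference. GC content was the median over GENCODE transcripts of a symbol and was available for at least 94.9% of the genes. File starts were raised by 1. Python 3.11.15, pandas 2.3.3, numpy 2.4.6 and scipy 1.17.1 were used.

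The members and 15 other gene lists were chosen with earlier results of these data known. Named from those lists were genes called at E16.5 and up to 4 with the largest difference in a comparison, not all of which are printed; Csf1, Sfpi1, Emr1, Cx3cr1, Cd207, C1qc, Clec10a, Ctss, Cx3cl1 and Lyz1 were added after their values were seen. Alternatives were another pseudocount, no filter, the authors' scaling, the authors' q-values, thresholds of 0.01 and 1.5-fold, 1 transcript per gene and GC-matched medians. Some genes of these lists are not reported by name here.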

Additional observations from a re-analysis of the deposited data

Results flagged for a closer look

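For 8 of the 9 members with at least 1 FPKM in both tissues, the E18.5 difference had opposite signs in dermis and epidermis, higher than the median gene in mutant dermis and lower in mutant epidermis. The gap between the tissues, dermis minus epidermis on the log2 scale, was 3.93 for Tyrobp, 3.85 for Fcer1g, 3.07 for Lyz2, 2.77 for Cd68, 2.14 for Aif1, 2.09 for Csf1r, 1.65 for Mrc1 and 0.87 for C1qb. The remaining member, C1qa, was lower than the median gene in both, but with GC-matched medians it was at 0.18 in dermis and -1.25 in epidermis, opposite signs as in the others. Each tissue has 1 mutant and 1 control library, and by their titles the libraries carry the numbers 7 and 1 in dermis and 9 and 6 in epidermis, so the tissues were not shown to come from the same embryos. The difference between tissues was not tested.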

How the results depend on the processing

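At E16.5 the direction of the members depends on the reference level. Their median, -0.09 relative to the median gene, was 0.0854 with no filter on low values and 0.34 on the authors' scaling, and the authors' deposited q-values called 5 members in place of 0; 10 members were above control before the median was subtracted. At E18.5 no change of pseudocount, filter, scaling, transcript or GC matching turned the direction of a member past the 2-fold line. In epidermis 7 members passed a 1.5-fold line in place of 3 at 2-fold, and Csf1r passed the 2-fold line on the authors' scaling (-1.14) and with no filter (-1.12), as Mrc1 did with a pseudocount of 0.1 (-1.82). In dermis Csf1r was at 0.99 with GC-matched medians in place of 1.13. At E16.5 C1qa was at 0.12 with GC-matched medians in place of -0.09, and C1qb at 0.41 in place of 0.28. The dermis median ranged from 1.49 to 2.11 and its 2-fold count from 7 to 8, and the epidermis median from -0.997 to -0.765 and its 2-fold count from 3 to 4. No paired analysis was possible because each E16.5 column joins both libraries of its group and the E18.5 groups have 1 library each; for the same reason no library could be left out. Values near 1 FPKM (Aif1, Cd163 and Mrc1 in some groups) rest on few reads of unknown number.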
